A study of Homo sapiens with 3 samples.

Results

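The genes described here are 10 tubulin genes, 4 of alpha tubulin (TUBA1A, TUBA1B, TUBA1C and TUBA4A), 5 of beta tubulin (TUBB, TUBB2A, TUBB2B, TUBB4B and TUBB6) and 1 of gamma tubulin (TUBG1). They were taken by name from a table of counts per gene, and all 10 were found among its 17595 human genes. The table holds 3 libraries of 1 group, HEK293 cells with no treatment named. HEK293 is a long-established line derived from human embryonic kidney. For each library 1000 cells were lysed together with control RNAs (ERCC spikes, labelled as 20000 molecules per cell), and a part equal to 100 cells went through 18 cycles of PCR. Fragments from the 5′ end of each RNA were then kept for sequencing, so a count stands for an RNA 5′ end and does not scale with the length of the RNA. Since every library pools many cells, more RNA in each cell and more cells with the RNA cannot be told apart.

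Alpha and beta tubulin pair into the dimer from which microtubules, the hollow filaments of the mitotic spindle, cilia and intracellular transport, are built. Each exists as several isotypes encoded by separate genes, whose proteins are close to each other in the body and differ most at the acidic tail, where modifying enzymes and motors act. Gamma tubulin is not part of the wall of the filament: it sits in a ring complex that starts new microtubules. Free tubulin dimer lowers the stability of tubulin mRNAs while they are being translated, which couples the transcripts of both families to the pool of protein.

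The libraries carry the index of their column, 20, 21 and 23, because the headings do not tie a column to a numbered replicate. They held 1532672, 1384172 and 1601555 counts, of which the spikes took 3.49% to 3.85%, and 1 count equals 0.647 to 0.751 CPM (counts per 1000000 endogenous counts, the level used here). No label says whether they came from separate cultures, so the spread among them may be technical. Of 7 kidney progenitor markers, CITED1, HOXA11, HOXD11 and SIX2 averaged at least 10 CPM. WT1 and EYA1 had 7.11 and 6.90 CPM, and PAX2 had 1 count in all. Of 9 neuronal markers 3 averaged at least 10 CPM: UCHL1 with 261 ± 8.03 CPM (SD, n = 3), NEFM with 35.6 ± 5.08 and NEFL with 33.9 ± 9.07 CPM. RBFOX3, SYT1 and GAP43 had 3.30, 1.54 and 0.44 CPM, MAP2 had 1 count, and DCX and ELAVL4 are not listed. No marker of blood, endothelium, motile cilia, muscle or hepatocytes averaged 10 CPM.

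RefSeq promoters (build GRCh38.p14) were found for all 10 genes, and where a gene has several starts the one nearest to its principal GENCODE transcript was used. The stretches below run from 40 to 11 bases before that start, the place of a TATA box in genes that have one. They are shown because the libraries count RNA 5′ ends, although which starts these cells used was not examined here. Capitals mark the letters TATAA or TATATA, searched on both strands between 45 and 15 bases before the start (a match of one can overlap one of the other).
TUBA1B, chr12:49131406-49131435, minus strand: gcagccgctacttaagaggctccagcgccg
TUBA1C, chr12:49265042-49265071, plus strand: gaccgggTATATAAggcccttcggggccgg
TUBA1A, chr12:49189091-49189120, minus strand: gaccgagttgTATATAgggagccgcatccg
TUBA4A, chr2:219253929-219253958, minus strand: ccccccccgccTATAAgggcggtgcggcac
TUBB, chr6:30720312-30720341, plus strand: cagcctgctttccctccgcgccctcccctc
TUBB4B, chr9:137241247-137241276, plus strand: ggcagggagggTATATAAgcgttggcggag
TUBB2A, chr6:3157555-3157584, minus strand: ggtccccgggTATAAaagaccgagctgggg
TUBB2B, chr6:3227664-3227693, minus strand: ccctccttgcataaaagccggagcccgcgg

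A match was present in 5 of the 10 tubulin promoters (TUBA1A, TUBA1C, TUBA4A, TUBB2A and TUBB4B), beginning 29 to 33 bases before the start, and in 5.37% of all 35116 RefSeq promoters. The most counted alpha gene, TUBA1B, and the most counted beta gene, TUBB, had no match in this window, nor had TUBB2B, TUBB6 and TUBG1. The letters CCAAT, on either strand of the 250 bases before the start, were found in 7 of the 10 tubulin promoters and in 32.01% of all. The letters GGGCGG, searched likewise, were found in 8 of the 10 and in 42.6% of all. The units differ: each tubulin gene enters with 1 start, whereas all promoters include several starts of the same gene. The unused starts of TUBA1C, TUBB and TUBB6 had no match to TATAA or TATATA, and some had CCAAT or GGGCGG. These are descriptions of letters, and the distance from the start depends on which annotated start is used: the RefSeq and GENCODE starts of the 10 genes lay 0 to 244 bases apart.

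Near-identical coding sequence can blur the counts of some tubulin isotypes, so the GENCODE v29 transcripts of the 10 genes were compared. The coding sequences of TUBA1A and TUBA1B were identical at 97.2% of aligned bases, TUBA1B and TUBA1C at 96.8%, and TUBB2A and TUBB2B at 98.1%. TUBB was more distant from the other beta genes, with 84.7% for TUBB2A and 80.9% for TUBB6. Of all windows of 50 bases in the transcript, 62.7% of those of TUBA1B, 41.1% of TUBA1A, 65.5% of TUBB2A and 52.2% of TUBB2B also occur in a transcript of another gene, against 9.89% for TUBB4B, 5.25% for TUBA4A and 0.99% for TUBB6. TUBG1 had 29.9%, most of it shared with TUBG2, while TUBA1C had 25.1% and TUBB 18.2%. At the 5′ end of these GENCODE transcripts the genes were distinct. Of the 51 windows that lie wholly within the first 100 bases, 0 were shared with another gene in each of the 10 transcripts. RefSeq starts lay up to 244 bases from the GENCODE starts, and which starts these cells used was not examined. The first shared window began at base 70 in TUBB2A and at base 96 in TUBA1B, just past their leaders of 63 and 95 bases. In TUBA1A, TUBA1C and TUBB2B it began at base 345, 275 and 199. No source used here gives the read length or says how reads that match several genes were assigned. The counts of TUBB2A, TUBB2B, the TUBA1 genes, TUBG1 and TUBB are uncertain to that extent.

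**Figure D1:**
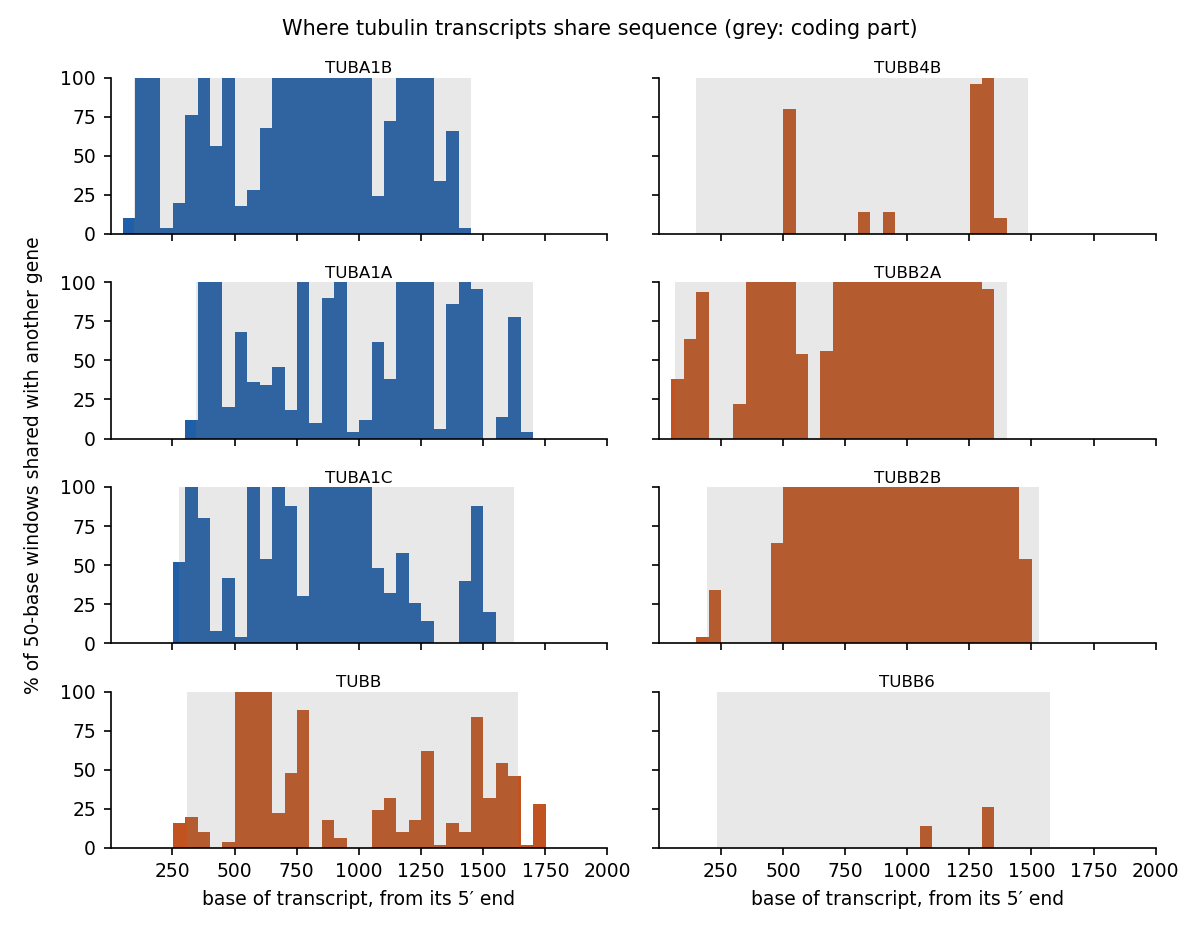
Share of 50-base windows (y axis, percent, in bins of 50 window starts) that occur in a transcript of another gene, against the position of the window from the 5′ end of the GENCODE transcript (x axis, bases), for 3 alpha genes (blue) and 5 beta genes (orange). The grey area is the coding part; sharing begins near its start in 6 of the 8 genes and at base 509 and 1063 in TUBB4B and TUBB6, and 0 of the 51 windows wholly within the first 100 bases are shared in each panel.

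TUBA1B was the most abundant of the tubulin transcripts, and 1 gene led in each family. It is the alpha isotype of most dividing cells and had 4065, 3670 and 3944 counts in libraries 20, 21 and 23, or 2754, 2758 and 2552 CPM. Its mean of 2688 ± 118 CPM (SD, n = 3) placed it at rank 56 of all genes, and library 23 was the lowest. TUBA1C, also on chromosome 12, had 894, 831 and 1030 counts, or 606, 624 and 666 CPM. In TUBA1C the order was the other way, with library 23 the highest.

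TUBA1A, the alpha isotype best known from developing neurons, had 151, 136 and 146 counts, or 102, 102 and 94.5 CPM. TUBA4A, an alpha isotype whose gene does not encode the terminal tyrosine of the others, had 17, 12 and 20 counts, or 11.5, 9.02 and 12.9 CPM. The 4 alpha genes did not overlap in any library, from 2688 ± 118 CPM for TUBA1B over 632 ± 31.1 for TUBA1C and 99.7 ± 4.50 for TUBA1A to 11.2 ± 1.99 for TUBA4A. TUBA4A shares 111 windows of 50 bases with TUBA4B, from base 722 onwards, and TUBA4B was not analysed here.

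Among the beta genes TUBB, the general beta isotype of dividing cells, led with 2189, 1961 and 2227 counts, or 1483, 1473 and 1441 CPM. TUBB4B, a widely expressed isotype that is also used in cilia, had 645, 630 and 755 counts, or 437, 473 and 488 CPM, lowest in library 20. The other beta genes were more than 10-fold below TUBB4B and lay together. TUBB2A had 58, 54 and 69 counts (39.3, 40.6 and 44.6 CPM), TUBB2B, the isotype of migrating neurons, had 61, 51 and 67 (41.3, 38.3 and 43.3 CPM), and TUBB6 had 63, 55 and 57 (42.7, 41.3 and 36.9 CPM). Their ranges overlapped, and no library held the highest value of all 3.

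TUBG1, the main gamma tubulin gene of dividing cells, had 338, 336 and 381 counts, or 229, 252 and 247 CPM. Its mean of 243 ± 12.2 CPM lay between TUBB4B and TUBA1A. All 10 genes had counts in each library and averaged at least 10 CPM, a level that 44.6% of the genes in the table reach. The median of the 10 was 171 ± 5.85 CPM, against 6.89 ± 0.20 CPM over all genes in the table.

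**Figure D2:**
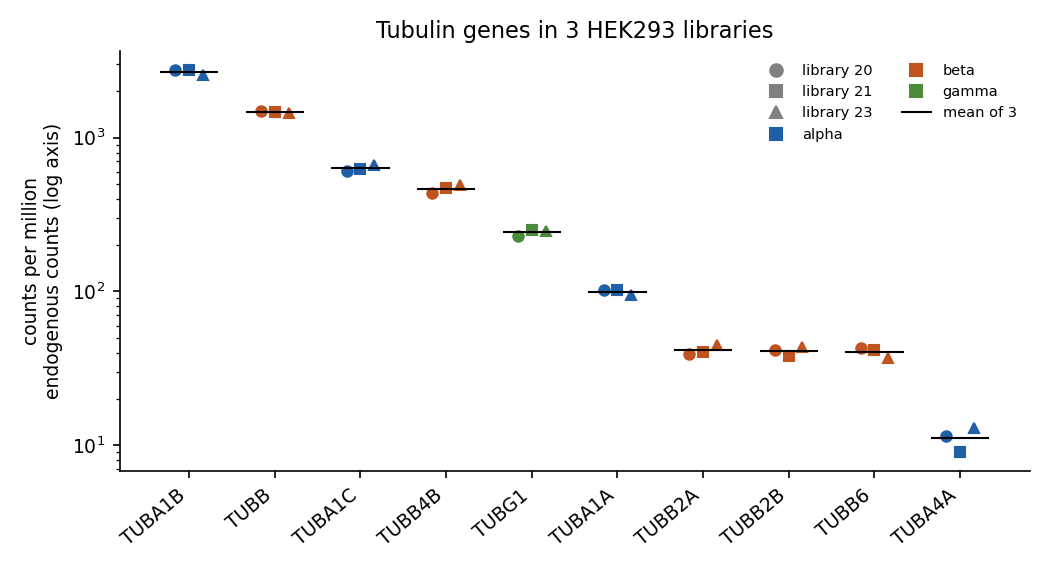
Level of each tubulin gene (y axis, CPM, log axis) in library 20 (circles), 21 (squares) and 23 (triangles), with the mean of the 3 as a line, in order of the mean. Blue is alpha, orange beta and green gamma tubulin; the levels run from TUBA1B at 2688 CPM to TUBA4A at 11.2 CPM, and TUBB2A, TUBB2B and TUBB6 overlap at 40.3 to 41.5 CPM.

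The order of the 10 genes was clear at all but 1 place. Of the 9 pairs of neighbours in the order, 7 differed beyond their spread, meaning that their CPM ranges did not overlap and that in each library the exact 95% binomial interval of the pair's split excluded equal counts. The smallest step among the 7 was from TUBA1C down to TUBB4B, 1.36-fold (log2 0.44 ± 0.037, SD, n = 3, higher in 3 of 3 libraries). Both other pairs lay within the group of low beta genes. TUBB2A over TUBB2B had a log2 ratio of 0.02 ± 0.081 and TUBB2B over TUBB6 one of 0.03 ± 0.18. With 3 libraries a sign test of a ratio cannot go below a 2-sided p of 0.25 (exact), so no p is given for comparisons between genes. How well each RNA is captured was not measured here, and it enters every ratio between genes.

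Within alpha tubulin, TUBA1B made up 78.3% ± 1.39 of the counts (SD, n = 3). Its shares were 79.3% (exact Clopper-Pearson 95% interval 78.2 to 80.4), 78.9% (77.7 to 80.1) and 76.7% (75.6 to 77.9) in libraries 20, 21 and 23. TUBA1C made up 17.4% (16.4 to 18.5), 17.9% (16.8 to 19.0) and 20.0% (19.0 to 21.2), a mean of 18.5% ± 1.39. For both genes the interval of library 23 lay apart from that of library 20, while that of library 21 overlapped both. Both genes together make up nearly all alpha counts, so their shares mirror each other and are not separate observations. The intervals take each count as a separate molecule, which is not known here, and the shift was not tested. TUBA1A took 2.90% ± 0.056 and TUBA4A 0.326% ± 0.066.

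TUBA1B and TUBA1C together gave 96.8% ± 0.047 of the alpha counts. TUBA1B exceeded TUBA1C 4.55-, 4.42- and 3.83-fold in the 3 libraries. Over TUBA1A the excess was 26.9-, 27.0- and 27.0-fold, and over TUBA4A it was 239-, 306- and 197-fold. The first of these ratios was lowest in library 23, the second hardly varied, and the third carries the counting error of at most 20 TUBA4A counts per library.

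The leading beta gene held a smaller share of its family's counts than the leading alpha gene. TUBB made up 72.6% (70.9 to 74.2), 71.3% (69.6 to 73.0) and 70.1% (68.5 to 71.7) of the beta counts in libraries 20, 21 and 23, a mean of 71.3% ± 1.22. TUBB4B made up 21.4% (19.9 to 22.9), 22.9% (21.3 to 24.5) and 23.8% (22.3 to 25.3), a mean of 22.7% ± 1.21. For both genes the intervals of the 3 libraries overlap, with library 20 at one end and library 23 at the other. Both together took 94.0% ± 0.14. TUBB2A took 2.02% ± 0.13, TUBB2B 2.00% ± 0.13 and TUBB6 1.96% ± 0.15.

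TUBB exceeded TUBB4B 3.39-, 3.11- and 2.95-fold. It exceeded TUBB2A 32.3- to 37.7-fold, TUBB2B 33.2- to 38.5-fold and TUBB6 34.7- to 39.1-fold over the libraries. Expressed as the number of equally abundant isotypes that would give the same concentration (the inverse of the summed squared shares), alpha tubulin had 1.54 ± 0.040 and beta tubulin 1.78 ± 0.038. The beta value is the higher of both, but 5 genes enter it and 4 enter the alpha value. This number can rise to the number of genes, so both values are not on a like scale.

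**Figure D3:**
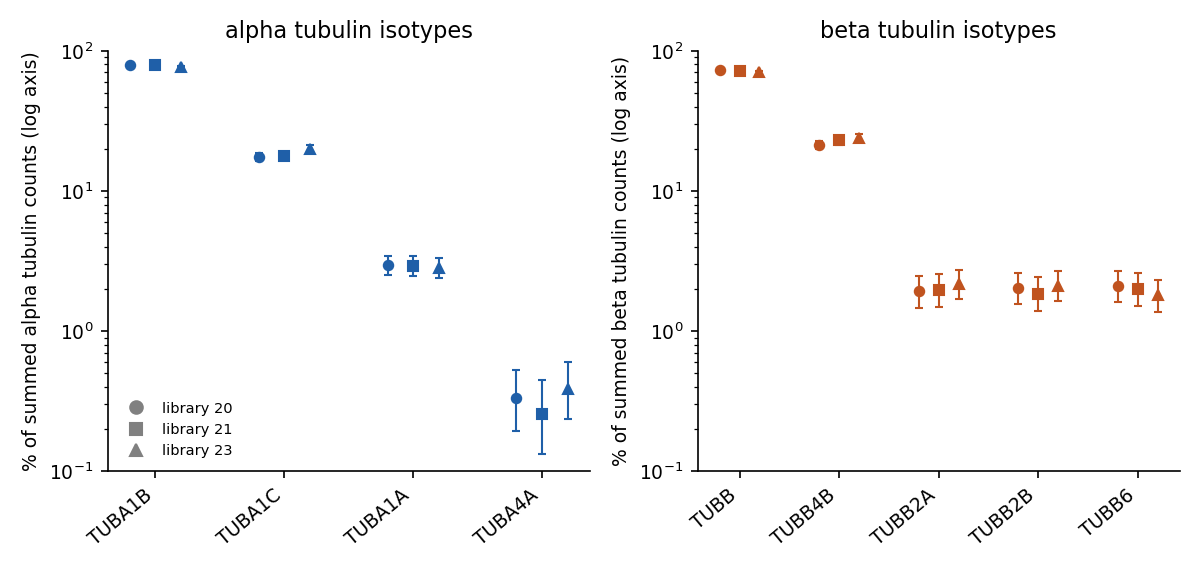
Share of each isotype in the summed counts of its family (y axis, percent, log axis) in library 20 (circles), 21 (squares) and 23 (triangles), with exact 95% Clopper-Pearson intervals. TUBA1B and TUBB hold 78.3% and 71.3% of their families, TUBA1C and TUBB4B 18.5% and 22.7%, and the other genes 2.90% or less each.

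Transcripts of the 4 alpha genes outnumbered those of the 5 beta genes in every library. The 4 alpha genes summed to 5127, 4649 and 5140 counts, or 3474, 3493 and 3326 CPM. The 5 beta genes summed to 3016, 2751 and 3175 counts, or 2044, 2067 and 2054 CPM. The ratio was 1.70, 1.69 and 1.62 (log2 0.74 ± 0.038, SD, n = 3), and the alpha share of both families was 63.0% (61.9 to 64.0), 62.8% (61.7 to 63.9) and 61.8% (60.8 to 62.9). All of these intervals exclude equal counts. The beta sum varied less between libraries, with an SD of 11.7 CPM, than the alpha sum, with 91.8 CPM. On the spike scale the order was the other way, with an SD of 52.9 molecules per cell for beta and 46.6 for alpha, and neither difference in spread was tested.

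The coding parts of the 10 genes are 1335 to 1356 bases long. Dividing each count by that length left the log2 ratio of alpha to beta at 0.72, the TUBA1B share at 78.3% and the TUBB share at 71.4%. Lengths so alike could not have moved these values much. Whole transcripts differ more, from 1595 bases for TUBB2A to 3001 for TUBA1C, and their lengths were not used. TUBG1 was outnumbered by alpha and beta together 22.6 ± 1.26-fold (log2 ratio of TUBG1 to their sum -4.50 ± 0.079, lower in 3 of 3 libraries). All 10 genes gave 0.573% ± 0.0095 of the endogenous counts.

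Scaled to the spikes, alpha tubulin came to 1802, 1745 and 1837 molecules per cell in libraries 20, 21 and 23. Beta tubulin came to 1060.0, 1032 and 1135, and TUBG1 to 119, 126 and 136. TUBA1B alone stood at 1405 ± 26.0 and TUBB at 767 ± 30.1 molecules per cell (SD, n = 3), while TUBB2A, TUBB2B and TUBB6 lay between 21.1 ± 0.95 and 21.8 ± 2.50, and TUBA4A at 5.88 ± 1.33. On this scale library 23 was the highest for the summed alpha, beta and gamma genes, whereas in CPM it was the lowest for alpha. These values rest on the labelled amount of spikes and take spikes and cell RNA to be captured alike, which was not tested.

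**Figure D4:**
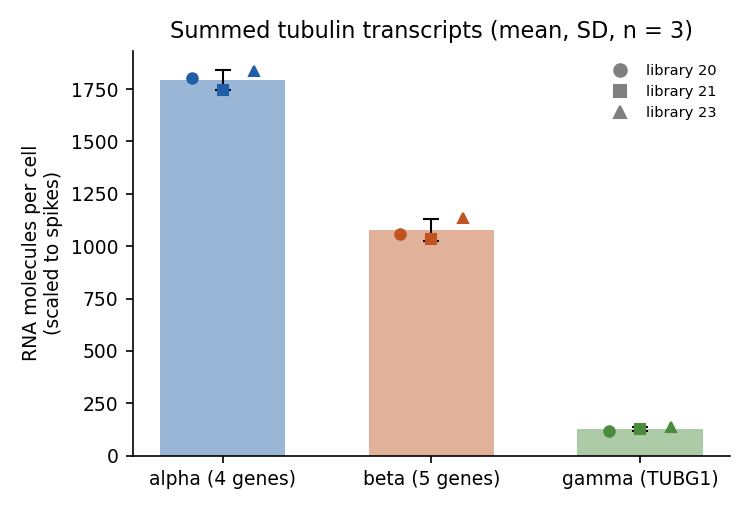
Summed tubulin transcripts per cell (y axis, molecules scaled to the spike counts) for the 4 alpha genes, the 5 beta genes and TUBG1. Bars are means of 3 libraries with SD, points are library 20 (circles), 21 (squares) and 23 (triangles); the means are 1795, 1076 and 127 molecules per cell.

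The libraries were also compared with each other, gene by gene. Every gene and pair of libraries was compared with a 2-sided exact binomial test on the endogenous totals, adjusted by Benjamini-Hochberg over all 11424 genes with at least 10 counts and the 3 pairs. Of the 10 tubulin genes, all of which passed that minimum, 0 were called at 0.05 in any pair, against 0.56% of all genes tested. By pair the background was 0.105% for libraries 20 and 21, 0.385% for 20 and 23, and 0.289% for 21 and 23, with 0 tubulin genes in each. At such a low background a count of 0 among 10 genes says nothing particular to tubulins. At an unadjusted p under 0.05 in any pair, 3 of the 10 tubulin genes passed, against 15.9% of all genes tested (1813 of 11424). They passed in 4 of 30 tests: TUBA1B in library 23 against both others (log2 difference -0.11 in each, exact binomial test, adjusted p = 0.126 and 0.136), and TUBA1C and TUBB4B in library 23 against library 20 (0.14 and 0.16, exact binomial test, adjusted p = 0.667 and 0.674).

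The call for TUBA1B depended on how the libraries were scaled. With edgeR's TMM factors TUBA1B was lower in library 23 than in libraries 20 and 21 by a log2 difference of -0.12 and -0.14 (exact binomial test, adjusted p = 0.0399 and 0.0156), with 0.692% of all genes called in any pair. With DESeq2's size factors the differences were -0.15 and -0.16 (exact binomial test, adjusted p = 0.000998 and 0.00101), with 0.998% of all genes called. With the spikes as the scale they were -0.02 and 0.03 (exact binomial test, adjusted p = 0.964 and 0.861), with 2.19% of all genes called. On the spike scale TUBA1C was instead higher in library 23 than in library 21 by 0.24 (exact binomial test, adjusted p = 0.0440), and the adjusted p of this pair was 0.885 with endogenous totals.

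In CPM, the spread of TUBA1B over libraries, a coefficient of variation of 4.39%, exceeded the 1.60% that counting alone would give. For TUBB the values were 1.51% and 2.17%, and for TUBA1A 4.51% and 8.33%. TUBA1C and TUBB4B had 4.91% and 5.67%, above the 3.31% and 3.85% from counting. On the same scale TUBG1, TUBB2A, TUBB2B, TUBB6 and TUBA4A varied less than counting alone would give. The comparison with counting was made in CPM only and took each count as a separate molecule, and the spread depends on the scale. Scaled to the spikes, TUBB at 767 ± 30.1 molecules per cell (SD, n = 3) had a larger SD than TUBA1B at 1405 ± 26.0. In CPM the larger SD was that of TUBA1B.

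Of 13 other tubulin genes looked up, 4 are listed. These were low, and 2 of them averaged at least 10 CPM. TUBE1 (epsilon tubulin) and TUBD1 (delta tubulin), which belong to centrioles, had 45, 37 and 39 counts and 44, 38 and 37 counts, or 27.8 ± 2.63 and 27.4 ± 3.09 CPM. TUBG2, the other gamma tubulin gene, had 13, 12 and 14 counts and lay 26.0- to 28.0-fold below TUBG1. TUBB4A, a beta isotype of brain, had 15, 9 and 13 counts and lay 43.0- to 70.0-fold below TUBB4B. The other 9, among them the neuronal TUBB3 and the platelet isotype TUBB1, are not listed in the table and were not analysed here. Their levels are therefore unknown, and the family shares and sums given above leave them out.

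RefSeq names 56 tubulin pseudogenes, and 3 of them have counts, with 31 counts in all libraries together. TUBBP5 had 24 of them and TUBA3FP 5. TUBBP1, which shares 422 of the 50-base windows of TUBB, had 2 counts against 6377 for TUBB. How reads that match both were assigned is not known, so these counts do not show where such reads went.

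The genes that fold tubulin and assemble its dimer were looked up in 3 groups, the last of which also holds related genes. The chaperonin TRiC, a ring of 8 different subunits that folds actin and tubulin, had 8 of 8 genes at 10 CPM or more and a median of 723 ± 22.6 CPM (SD, n = 3), led by CCT4 at 1072 ± 34.3, CCT6A at 790.1 ± 17.1, CCT5 at 784 ± 27.7 and CCT2 at 724 ± 30.0 CPM. Prefoldin, which hands unfolded tubulin to TRiC, had 6 of 6 genes and a median of 196 ± 6.34 CPM, with PFDN5 at 549.96 ± 17.7, VBP1 at 331 ± 7.49, PFDN2 at 236 ± 7.05 and PFDN1 at 152 ± 10.8 CPM. The list of tubulin cofactors and related genes had 6 of 7 genes at 10 CPM or more, with TBCEL below at 4.31 CPM, and a median of 36.2 ± 4.98 CPM. TBCA, which holds beta tubulin, had 584 ± 17.3 CPM and TBCB, which holds alpha tubulin, 213 ± 4.43 CPM, followed by TBCE at 61.3 ± 10.9 and TBCC at 32.9 ± 6.71 CPM.

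Genes that start microtubules had lower medians than the folding machinery. All 12 genes of the list of the gamma-tubulin ring complex and its anchors averaged at least 10 CPM, with a median of 22.97 ± 0.94 CPM. The small subunits led, with MZT1 at 327 ± 7.98, MZT2B at 212 ± 7.12 and MZT2A at 145 ± 13.6 CPM, before the core subunit TUBGCP2 at 67.1 ± 15.1 CPM. MZT2A and MZT2B are near-identical copies, so their split is uncertain. Of the augmin complex, which branches spindle microtubules, 6 of 8 genes reached 10 CPM, with a median of 16.5 ± 5.05 CPM. HAUS1 had 122 ± 20.4, HAUS6 47.1 ± 8.64, HAUS2 28.9 ± 4.24 and HAUS8 17.5 ± 4.26 CPM.

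Of 22 genes of enzymes that modify tubulin, 16 are listed and 9 reached 10 CPM. The median of the 16 was 11.6 ± 2.63 CPM, against 6.89 ± 0.20 CPM over all genes in the table. With 0 for the genes that are not listed, the median of the 22 was 6.28 ± 1.73 CPM. TTLL12, a member of the tyrosine ligase-like family, had 125 ± 25.9 CPM, the deacetylase gene SIRT2 48.3 ± 4.71, AGBL5, which removes branching glutamates, 29.5 ± 7.62, and the tyrosine ligase gene TTL 28.7 ± 7.07 CPM. Of the genes of tubulin mRNA autoregulation, TTC5, which recognises nascent tubulin at the ribosome, had 38.8 ± 0.59 CPM, CNOT11, a subunit of the deadenylase that it recruits, 37.1 ± 10.8, and the adaptor gene SCAPER 6.60 ± 4.28 CPM. Of 18 genes of microtubule binding, severing and sequestering, 16 reached 10 CPM, with a median of 28.5 ± 5.02 CPM. STMN1, which sequesters dimers, had 623 ± 16.5 CPM, the end-binding gene MAPRE1 171 ± 5.03, the spindle assembly factor gene TPX2 101 ± 17.6 and MAPRE2 101 ± 16.6 CPM. In all lists together, other tubulin genes included, 67 of 97 genes averaged at least 10 CPM, against 44.6% of the genes in the table.

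**Figure D5:**
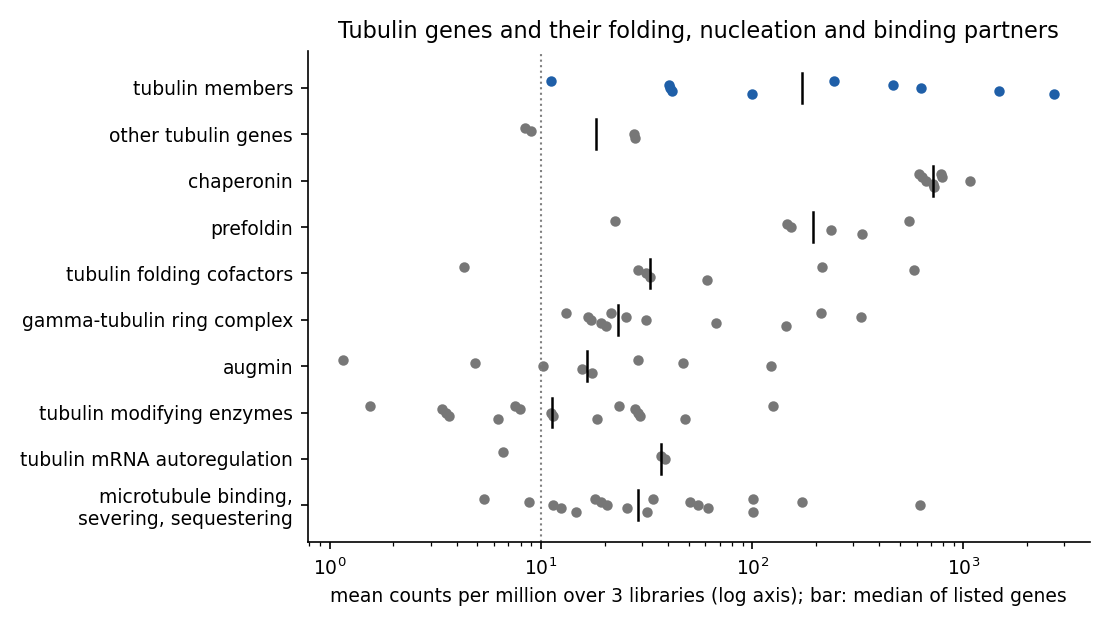
Level (x axis, CPM, mean of 3 libraries, log axis) of the 10 tubulin genes (blue) and of the listed genes of each other group (grey), 1 point per gene, with the median of the listed genes as a bar and 10 CPM as a dotted line. The 8 chaperonin genes lie close together around 723 CPM, whereas the tubulin genes spread from 11.2 to 2688 CPM.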

How the data were processed

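The authors deposited raw counts per gene and spike in 3 columns. The submitters' processing notes name STAR 2.4.0a, cutadapt 1.2.1 and the build hg19 (GRCh37), with no roles or settings. What counted the reads, on which annotation, with or without strand, and whether molecular identifiers were collapsed, is not given in the sources used here. Reads and molecules therefore cannot be told apart, and intervals cover counting error only. Columns name no replicate number and were used as unnumbered replicates.

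CPM are counts per 1000000 endogenous counts, without the 80 spike rows. Molecules per cell are counts over spike counts times the labelled molecules per cell. Levels are mean and SD over libraries. The test between libraries was run over the whole table and checked on simulated data. There it called 163 of 200 genes changed 2-fold, 73 of 200 changed 1.5-fold, and 0 genes when none was changed. It also called 17 and 4 unchanged genes in the 2-fold and 1.5-fold runs. The simulated libraries differed by counting error only, and the changed genes were better counted than the minimum of 10 counts requires. These rates therefore need not hold for the real libraries or for genes with few counts. The members, the lists and the rule for the named genes were chosen with earlier results of these data known. That rule names the 10 members, every other listed tubulin gene, the 4 most abundant genes of each list, the 3 genes nearest in level to TUBA1B, TUBB and TUBG1, and the 2 most counted pseudogenes. TUBBP1 and genes named as not listed were added after the values were seen. GENCODE v29 transcripts (GRCh38, another build than that of the counts) served for sequence comparison only. No protein sequences were used here. Scaling factors came from edgeR 4.0.16 and DESeq2 1.42.0 in R 4.3.3. Tests used scipy 1.17.1 and numpy 2.4.6, tables pandas 2.3.3, alignments Biopython 1.88 and figures matplotlib 3.10.9, under Python 3.11.15. Alternatives were leaving out each library, other scalings, filters and tests, coding length, added tubulin genes and pseudogenes, other spike sets and other detection levels.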

Additional observations from a re-analysis of the deposited data

How the results depend on the processing

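The isotype shares, both family ratios and the count of 7 separated neighbours moved by less than 1 SD, or not at all, under each alternative run for them: leaving out a library, other tubulin genes or pseudogenes in the sums, coding length and pooled counts for the shares and ratios, and other scalings for the order. Several of these could hardly have come out otherwise. Leaving out 1 of 3 libraries cannot move a mean by as much as 1 SD. None of the other alpha genes looked up is listed, so adding listed genes left the alpha shares as they were. Coding lengths are nearly equal, and other scalings do not change the split of a pair within a library. Only TUBB2A, TUBB2B and TUBB6 changed places in the order, when library 21 or 23 was left out. The number of genes called between libraries moved from 64 to 114 with DESeq2's size factors and 250 with spikes as the scale, and lay between 8 and 59 when a library was left out. Without library 23 it was 8 and without library 20 it was 42, each from 1 pair in place of 3. The lowest adjusted p of a tubulin gene ranged from 0.000998 to 1.0 over the alternatives of the exact binomial test. The summed tubulin level of 2997 molecules per cell became 3752 without the most counted spike, since fewer spike counts then stand for the same labelled amount. The number of list genes detected, 67, became 29 at a level of 50 CPM. No paired analysis was possible because the series has 1 group. A gene near 11 CPM such as TUBA4A rests on 12 to 20 counts per library.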

Other observations

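The genes nearest to the leading tubulins in level over the 3 libraries (root mean square difference of log2(CPM + 1)) were ribosomal protein genes for TUBA1B: RPS26 (0.049), RPL29 (0.053) and RPS24 (0.059). TUBB lay nearest to BTF3 (0.025), a subunit of the nascent polypeptide-associated complex, C1QBP (0.041), a mitochondrial matrix protein gene, and UQCRH (0.049), a subunit of respiratory complex III. TUBG1 lay nearest to the non-coding host gene GAS5 (0.030), the splicing factor gene SF3B4 (0.040) and the histone variant gene H2AFV (0.044). With 3 libraries of 1 group this is likeness of level, not of a response.

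The chaperonin genes, whose products form a ring with equal numbers of each subunit, lay within a range from CCT8 at 615 ± 26.5 to CCT4 at 1072 ± 34.3 CPM (SD, n = 3). Alpha and beta tubulin, whose products also pair in equal number, differed 1.67-fold in their sums, no more than CCT4 differs from CCT8. Single alpha and beta genes ran from 11.2 to 2688 CPM. Sums over a family and levels of single genes are not like measures.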
